A study of Mus musculus with 6 samples.

Results

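Protein kinase A (PKA) subunits and cAMP phosphodiesterases were described as a set of 10 genes: the regulatory subunit genes Prkar1a, Prkar1b, Prkar2a and Prkar2b, the catalytic subunit genes Prkaca and Prkacb, and the phosphodiesterase genes Pde3a, Pde3b, Pde4b and Pde4d. They were found by the gene symbol of the array platform, which gave 32 probe sets among the 45037 that are not controls, and 10 of the 18193 genes measured. The set was selected on measured differences between doxycycline-treated and untreated cells, those of Prkar2b and Pde3a among them, so these differences are given as descriptions with no test.

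The cells were Ba/F3, a mouse haematopoietic line of BALB/c origin that needs interleukin-3, which is supplied here by supernatant of WEHI-3 cells. All 6 samples came from cells transduced with the PAX5-KIDINS220 fusion under a Tet-on promoter, and the question was which pathways the fusion affects. In 3 samples, labelled Dox(-), no doxycycline was added, and in 3, labelled Dox(+), 500 ng/mL was added, with total RNA taken at 24 h and hybridised to Affymetrix Mouse Genome 430 2.0 arrays. Array codes begin with EA15 on 1 Dox(-) and 1 Dox(+) array, called here the EA15 pair, and with EA20 on 2 arrays of each group, called the EA20 set. The labels do not say what the codes mark, whether the samples of a group were separate cultures, or whether the transduced cells were a single clone, so spreads may be technical. No doxycycline-treated cells without the fusion are among the samples, so the drug and the fusion cannot be told apart. In the EA20 set the codes of both treated arrays come before those of both untreated arrays, and code order and treatment cannot be told apart there.

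PKA is a tetramer of a pair of regulatory and a pair of catalytic subunits. Binding of cAMP to the regulatory subunits frees the catalytic subunits, which phosphorylate proteins such as the transcription factor CREB. Type I regulatory subunits (from Prkar1a and Prkar1b) are largely cytosolic, type II ones (from Prkar2a and Prkar2b) are mostly held at membranes and organelles by A-kinase anchoring proteins, and phosphodiesterases of the PDE3 and PDE4 families end the signal by hydrolysing cAMP. In haematopoietic cells cAMP is best known for restraining activation and proliferation.

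Promoter sequences of 8 members were found in RefSeq (GRCm38.p6), in 24 windows that run from 250 bases before to 50 after an annotated start. The windows of the 3 regulatory subunit genes with the brightest probe sets are shown, since Prkar2b had a lower signal with doxycycline and Prkar1a and Prkar2a did not. Both windows of Prkar2b and the 1 of Prkar2a are given, but of the 6 of Prkar1a only 1, one of the 2 that hold TGACGTCA, which was chosen with the motif matches known. Capitals mark matches on either strand to the cAMP response element TGACGTCA, to its 5-base form TGACG, which lies within it, and to the GC box GGGCGG.
Prkar2b, upstream start, chr12:32061228-32061527, minus strand: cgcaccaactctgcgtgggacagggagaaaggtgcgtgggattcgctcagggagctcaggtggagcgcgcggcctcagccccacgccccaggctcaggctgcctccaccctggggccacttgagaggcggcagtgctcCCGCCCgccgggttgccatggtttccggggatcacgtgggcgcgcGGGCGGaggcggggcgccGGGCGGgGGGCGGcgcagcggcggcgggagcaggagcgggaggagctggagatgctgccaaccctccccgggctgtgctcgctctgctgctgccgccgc
Prkar2b, inner start, chr12:32060540-32060839, minus strand: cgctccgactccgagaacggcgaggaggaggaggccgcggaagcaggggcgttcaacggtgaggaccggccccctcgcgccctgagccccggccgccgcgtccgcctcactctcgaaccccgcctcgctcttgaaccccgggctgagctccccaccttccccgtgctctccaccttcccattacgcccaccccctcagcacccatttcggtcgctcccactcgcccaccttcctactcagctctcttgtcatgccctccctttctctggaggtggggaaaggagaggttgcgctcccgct
Prkar1a, chr11:109650699-109650998, plus strand: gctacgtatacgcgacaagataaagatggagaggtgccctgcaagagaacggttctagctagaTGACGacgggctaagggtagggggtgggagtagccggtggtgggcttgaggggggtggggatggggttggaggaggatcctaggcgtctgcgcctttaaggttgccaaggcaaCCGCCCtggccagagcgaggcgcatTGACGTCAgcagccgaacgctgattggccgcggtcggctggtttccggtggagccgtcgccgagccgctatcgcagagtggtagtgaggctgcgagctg
Prkar2a, chr9:108691893-108692192, plus strand: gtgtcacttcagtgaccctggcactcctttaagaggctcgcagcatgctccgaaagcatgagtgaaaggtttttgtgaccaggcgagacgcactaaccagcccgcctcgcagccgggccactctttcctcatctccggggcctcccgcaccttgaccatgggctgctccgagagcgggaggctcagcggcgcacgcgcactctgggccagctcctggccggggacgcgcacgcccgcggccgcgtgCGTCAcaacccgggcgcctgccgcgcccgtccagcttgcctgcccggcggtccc
The upstream Prkar2b window held 4 GC boxes and no TGACG, and the inner window none of the motifs searched. The full response element TGACGTCA lay 49 bases before the start in the Prkar1a window shown, and among the 24 windows it occurred in 2, both of Prkar1a, which overlap and share the site. Over all 32851 promoter windows of the table, 1.79% held TGACGTCA, 20.8% TGACG and 35.7% GGGCGG. The short form TGACG was found in 8 of the 24 windows and GGGCGG in 10 of them. The windows with TGACG belong to 6 members: Prkar1a, Prkar1b, Prkar2a, Prkaca, Prkacb and Pde4b. Several members have more than 1 window, so this count of members is not to be set against the percentages of windows. GCGTGAC, a core of the motif bound by PAX5, may overlap TGACG by its last 4 bases, was in 0 of the 24 windows and in 2.09% of all. These are matches of letters, not binding sites.

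Values are linear signal intensities per probe set; every array had the same trimmed mean of 500, and the median probe set signal was 56.3 to 65.6. A gene is represented by its brightest probe set, and differences are of log2(signal + 16), which understates those of dim genes. Signals of different probe sets depend on their probes as well as on the RNA, so genes are compared between arrays and not ranked against each other. Of 6 markers of an interleukin-3 dependent line 5 were above the median gene signal of 126, among them Csf2rb, the common beta chain of the interleukin-3 receptor, while Kit was at 31.5. Of 7 measured B-lineage markers only Cd79b was above that median, and 0 of 4 fibroblast markers were. Other lineages did have markers above it. They were 3 of 5 for macrophage and myelomonocytic cells (among them Adgre1 at 897 and Csf1r at 273) and 2 of 2 measured for erythroid cells (Klf1 at 3082, Epor at 465). For T cells it was 1 of 4, and for mast cells, basophils and eosinophils 3 of 5. As a check of the labels, Pax5 probe set 1421765_at averaged 13.2 ± 8.54 in Dox(-) and 103 ± 14.1 in Dox(+) (SD, n = 3 each); it is not known here if it reads the transduced fusion. The other Pax5 probe set, 1454401_at, averaged 65.8 ± 36.6 and 77.6 ± 48.1 with overlapping groups, and so did not separate the labels. The 4 Kidins220 probe sets also overlapped over the 6 arrays, with blocked log2 differences of 0.18 (SE 0.08), 0.11 (SE 0.06), 0.26 (SE 0.18) and -0.08 (SE 0.32). Within each array set, however, the treated arrays of 1430449_at, 1433852_at and 1436607_a_at all lay above the untreated ones. Those of the dimmest, 1455762_at, did not. In these bulk samples, fewer cells of a type and less RNA per cell cannot be told apart.

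Prkar2b, which encodes the type II regulatory subunit RIIβ, was the bright member with the lowest signal under doxycycline relative to untreated cells. Its signals were 4866 (EA15), 3426 and 3300 (EA20) in Dox(-) and 2758 (EA15), 1888 and 1515 (EA20) in Dox(+). All 3 treated arrays lay below all 3 untreated arrays, and within each treatment the EA15 array was the highest. The order ran from EA15 untreated through EA20 untreated and EA15 treated to EA20 treated, and since the EA15 levels are single arrays, neighbours in this order have no spread to be set against. Group means were 3864 ± 870 and 2054 ± 638 (SD, n = 3 each). Treated over untreated signal was 0.568 in the EA15 pair and 0.505 in the EA20 set, and the blocked log2 difference, which compares treatments within array sets, was -0.93 (SE 0.09).

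The other Prkar2b probe sets gave the same picture. Probe set 1438664_at read 2508, 2323 and 2662 without and 1497, 1455 and 1303 with doxycycline, and 1430640_a_at read 3025, 1858 and 1751 without and 1647, 1184 and 997 with it. In each of the 3 probe sets the groups did not overlap, and the blocked log2 differences were -0.93, -0.81 and -0.77. They differed in how they read the array sets: 1456475_s_at and 1430640_a_at were highest on the EA15 array within each treatment, and 1438664_at was so with doxycycline only.

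Prkar1a, which encodes RIα, the regulatory subunit made in nearly all cells, had signals of 6035, 7528 and 7351 in Dox(-) and 5643, 7574 and 7752 in Dox(+). The ranges overlapped almost completely, and the blocked log2 difference was -0.004 (SE 0.059). A further bright Prkar1a probe set, 1425550_a_at, was at 0.01 (SE 0.07).

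Prkar2a, the gene of the other type II subunit RIIα, followed the array sets and not the treatment. It read 1358 and 1483 in the EA15 pair, without and with doxycycline, and 693, 724, 699 and 716 in the EA20 set, the latter 2 with doxycycline. The blocked difference was 0.04 (SE 0.07) for this probe set and -0.03 (SE 0.08) for 1428783_at. Prkar1b, the gene of RIβ, a subunit known mainly from neurons, was near the median gene, with signals of 129 to 205 without and 147 to 178 with doxycycline, and a difference of -0.03 (SE 0.20). Its dimmer probe sets did not share a direction. Probe set 1440133_x_at was at 0.44 (SE 0.32), while 1416753_at, 1434325_x_at and 1416754_at were at -0.40 (SE 0.38), -0.41 (SE 0.43) and -0.38 (SE 0.33).

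**Figure D1:**
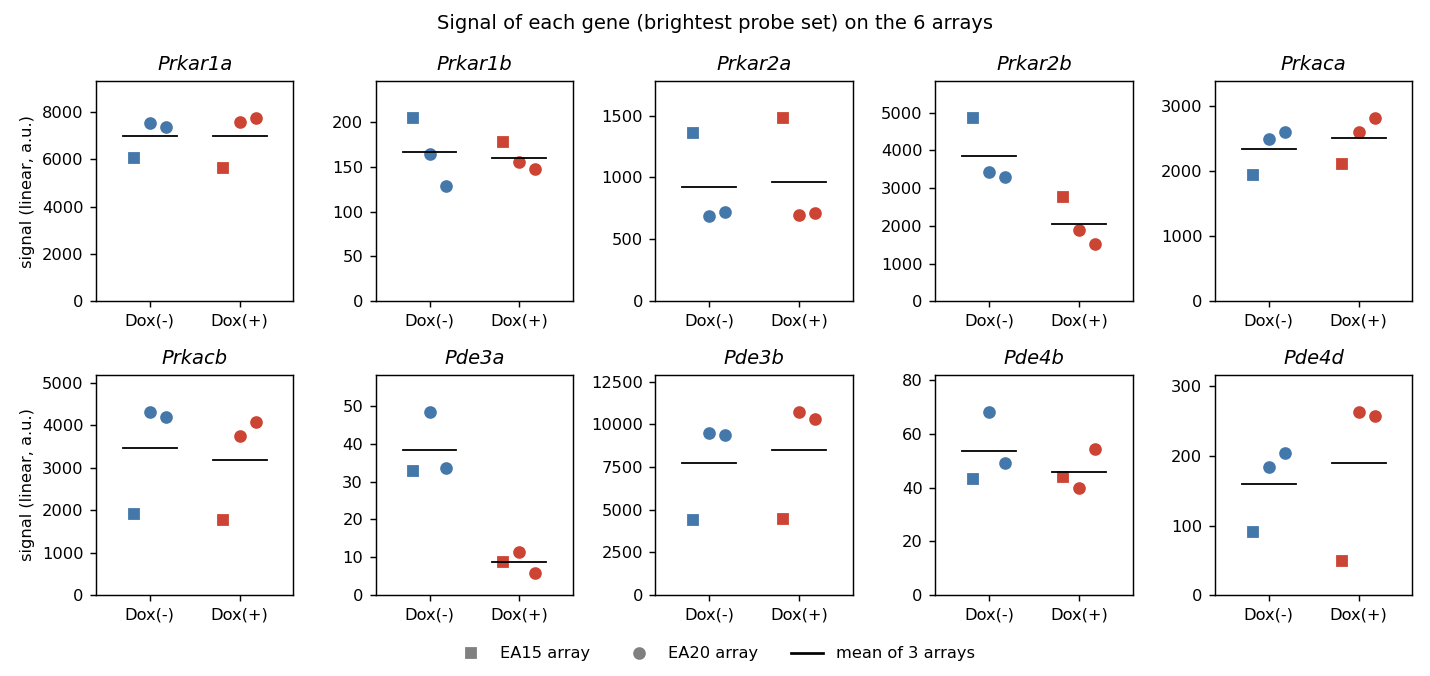
Linear signal (arbitrary units, axes start at 0) of the brightest probe set of each of the 10 genes on the 3 Dox(-) and 3 Dox(+) arrays; squares are EA15 arrays, circles EA20 arrays and lines group means. The Dox(+) points lie below all Dox(-) points for Prkar2b and Pde3a. Prkar1a, Prkar1b, Prkar2a, Prkaca, Prkacb, Pde3b and Pde4d split by array set.

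The share of Prkar2b in the summed signal of the 4 regulatory genes was 39.0%, 29.0% and 28.7% in Dox(-) and 27.4%, 18.3% and 14.96% in Dox(+). It was lower with doxycycline by 11.6 percentage points in the EA15 pair and by 12.2 in the EA20 set, where the means were 28.8% and 16.6%. The treated EA15 array lay just below the untreated EA20 arrays. These are shares of signal and not of mRNA or protein, since probe sets respond differently to the same amount of RNA, and only their change between arrays can be read.

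Prkar1a made up 48.4% and 56.1% of the signal in the EA15 pair and 63.7%, 63.9%, 73.4% and 76.5% in the EA20 set, the higher value or values being those with doxycycline. Prkar2a had 10.9% and 14.7% in the EA15 pair and between 5.87% and 7.07% in the EA20 set. Prkar1b stayed between 1.12% and 1.76% on the 6 arrays. With all probe sets of a gene summed, the Prkar2b share was 37.8% ± 3.43 in Dox(-) and 25.2% ± 4.46 in Dox(+) (SD, n = 3 each).

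The summed regulatory signal was 12464, 11811 and 11504 without and 10061, 10317 and 10130 with doxycycline. Without Prkar2b the sums were 7598, 8385 and 8204 against 7303, 8429 and 8615, and the groups overlapped. The sum of Prkar1a, Prkar1b and Prkar2a thus did not separate the treatments, while the sum with Prkar2b did.

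**Figure D2:**
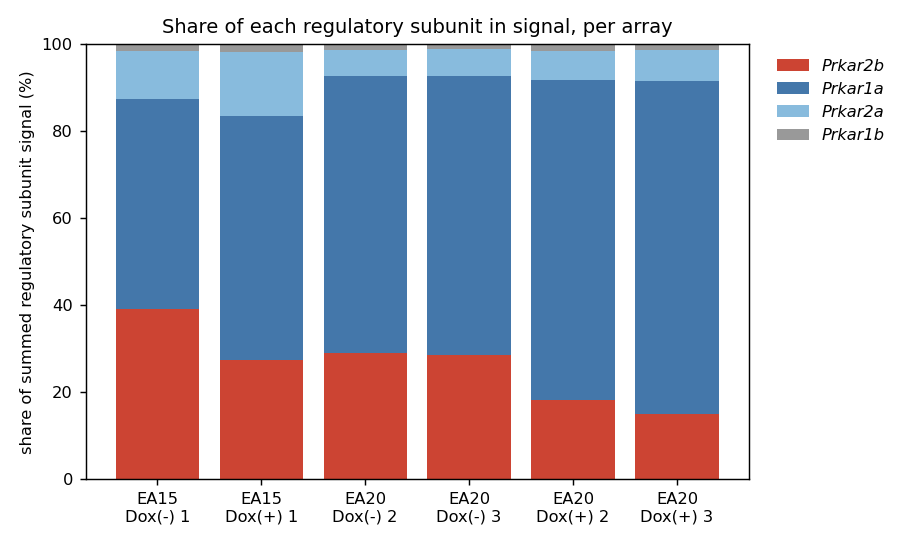
Share (%) of each regulatory subunit gene in the summed signal of Prkar1a, Prkar1b, Prkar2a and Prkar2b on each array, brightest probe sets, ordered by array set. The Prkar2b segment goes from 39.0% to 27.4% in the EA15 pair and from a mean of 28.8% to 16.6% in the EA20 set.

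Catalytic subunit genes differed little by treatment. Prkaca, the gene of the widely expressed Cα subunit, read 1947, 2495 and 2603 without and 2110, 2610 and 2823 with doxycycline, a blocked log2 difference of 0.10 (SE 0.06). Its other probe set, 1450519_a_at, was at -0.07 (SE 0.11), so the direction was not shared. Prkacb, the gene of Cβ, read 1899, 4318 and 4187 without and 1756, 3747 and 4066 with doxycycline, at -0.12 (SE 0.06). In each array set the treated Prkacb arrays lay below the untreated ones, with ratios of 0.918 in the EA20 set and 0.926 in the EA15 pair. The sum of both catalytic signals was 3846, 6814 and 6790 without and 3866, 6358 and 6888 with doxycycline, and it separated the array sets, not the treatments.

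Pde3a, the gene of a cGMP-inhibited phosphodiesterase known best from heart and platelets, was dim. Signals of 1431913_a_at were 32.7, 48.5 and 33.7 in Dox(-) and 8.86, 11.5 and 5.74 in Dox(+), all below the array medians. The groups did not overlap, and the blocked log2 difference was -1.13 (SE 0.31), with -0.97 in the EA15 pair and -1.21 in the EA20 set. The remaining Pde3a probe sets were dimmer and did not share this: 1431914_at was at 0.45 (SE 0.33) and 1450284_at at -0.16 (SE 0.22). The size also rests on the pseudocount, being -2.04 with 1 and -0.49 with 64 in place of 16.

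Pde3b, the gene of the related enzyme of fat, liver and haematopoietic cells, had the opposite kind of profile, bright and tied to the array sets. It read 4392 and 4434 in the EA15 pair and 9508, 9358, 10746 and 10286 in the EA20 set, the latter 2 with doxycycline. In the EA20 set both treated arrays were above both untreated ones by a ratio of 1.11, and in the EA15 pair the ratio was 1.01. The blocked difference was 0.11 (SE 0.06).

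Pde4b and Pde4d encode cAMP-specific phosphodiesterases that are the main PDE4 forms of leukocytes. The brightest Pde4b probe set read 43.2, 68.3 and 49.1 without and 43.8, 39.8 and 54.3 with doxycycline, below or near the array medians, at -0.16 (SE 0.32). Its other 5 probe sets had mean signals of 3.74 to 14.7, so the gene was dim by every probe set. Pde4d read 90.5 and 48.8 in the EA15 pair, without and with doxycycline, and 184 and 205 against 264 and 257 in the EA20 set. The log2 difference was thus -0.72 in the EA15 pair and 0.39 in the EA20 set, and 0.02 (SE 0.26) with the block. The EA15 difference is between single arrays and has no spread of its own.

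Over all genes the blocked limma fit called 9 lower with doxycycline (0.0495%) and 27 higher (0.148%) at a Benjamini-Hochberg adjusted p under 0.05. No call is given for the 10 members, which were chosen with this contrast known. The groups did not overlap in 2 members, Prkar2b and Pde3a, both lower, beside 3.06% of all genes that were lower without overlap, and nothing is read from that count. The median blocked log2 difference was -0.02 over the 10 members and 0.004 over all genes. Without the block limma called 0 genes (470, or 2.58%, at an unadjusted p under 0.05), and with the EA20 arrays alone 75 (0.412%). The number of calls over all genes changed when single arrays were left out. There were 0 without Dox(-) array 3 or Dox(+) array 2, 3 without Dox(-) array 2 and 5 without Dox(+) array 3. Without the Dox(-) or Dox(+) array of the EA15 pair there were 60 or 59. Such fits also have fewer arrays from which to estimate spread, and the cause of the changes was not tested. The log2 difference of Prkar2b lay between -1.002 and -0.82 when any array was left out.

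The comparison of the array sets did not enter the choice of members and was tested in the same fit, with doxycycline as a term. The block itself was chosen with earlier results of these data known. The EA15 side is a single pair of arrays, so the p-values measure spread between arrays and not between independent sets. By limma, 5 members were higher in the EA20 set and 2 lower, against 17.3% and 16.3% of all genes. Pde3b was 2.25-fold higher (log2 difference 1.17, SE 0.06, limma adjusted p 1.8e-06), from 4413 to 9975 in mean signal. Prkacb was 2.22-fold higher (1.15, SE 0.06, limma adjusted p 1.5e-06), and its probe set 1420610_at was higher as well (1.33, SE 0.15). Prkar2a was at 0.504 of its EA15 level (-0.99, SE 0.08, limma adjusted p 1.1e-05), with -1.14 (SE 0.09) in 1428783_at and -0.18 (SE 0.20) in the dimmer 1427414_at.

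Pde4d was 2.90-fold higher in the EA20 set (SE 0.28 on the log2 scale, limma adjusted p 0.002), with EA15 signals of 48.8 and 90.5 against 184 to 264. Its log2 difference of 1.54 was 0.98 without the Dox(+) array of the EA15 pair and 2.09 without the Dox(-) array, and it passed with either left out (limma adjusted p 0.033 and 0.0014). Prkar1a and Prkaca were 1.29- and 1.30-fold higher by their brightest probe sets (limma adjusted p 0.0013 and 0.0012), but not by 1425550_a_at (-0.12, SE 0.07) or 1450519_a_at (-0.04, SE 0.12). With the mean of all probe sets, Prkar1a, Prkaca and Pde4d did not pass (limma adjusted p 0.31, 0.15 and 0.083). Prkar2b was at 0.653 of its EA15 level (limma adjusted p 0.00055), a difference that 1438664_at did not show (-0.07, SE 0.08). Prkar1b (-0.33, SE 0.21), Pde3a (0.10, SE 0.33) and Pde4b (0.19, SE 0.34) did not pass. Without _s_at, _x_at and _a_at probe sets Prkar1b is read by the dim 1416753_at, which was lower in the EA20 set (-1.28, limma adjusted p 0.032).

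The 7 of 10 members called between array sets stand against 33.6% of all genes and 63.0% of genes above the median signal, where 8 of the members lie (7 of them called), so a count this high is not particular to them. Markers of other cell types moved with the array sets. The summed signal of 5 mast cell, basophil and eosinophil markers was 402 and 528 in the EA15 pair and 16395 to 22247 in the EA20 set, with Prg2, the eosinophil major basic protein gene, at 148 and 207 against 15405 to 20881; 3 of the 5 were called higher. The 6 markers of an interleukin-3 dependent line summed to 22050 and 23951 against 54903 to 60367. None of these markers was listed at 0. The part of such differences in the array-set values of the PKA and phosphodiesterase genes was not tested. With doxycycline the summed mast cell, basophil and eosinophil signal was higher within each set (402 against 528 in the EA15 pair, and 16503 and 16395 against 22247 and 21386 in the EA20 set), and its part in the doxycycline differences was not tested either. That sum is nearly all Prg2 in the EA20 set. Mcpt8, a basophil protease gene of the same list, was dim and lay the other way, at 18.9, 27.4 and 36.1 without and 4.79, 5.62 and 5.77 with doxycycline, with no overlap of the groups (log2 difference -1.005, SE 0.29, limma adjusted p 0.24). Prg2 rose by the blocked limma fit (log2 difference 0.41, SE 0.054, adjusted p 0.028), a call that was lost when any of the 6 arrays was left out (limma adjusted p 0.075 to 0.21), and that passed in 5 of 16 alternatives.

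**Figure D3:**
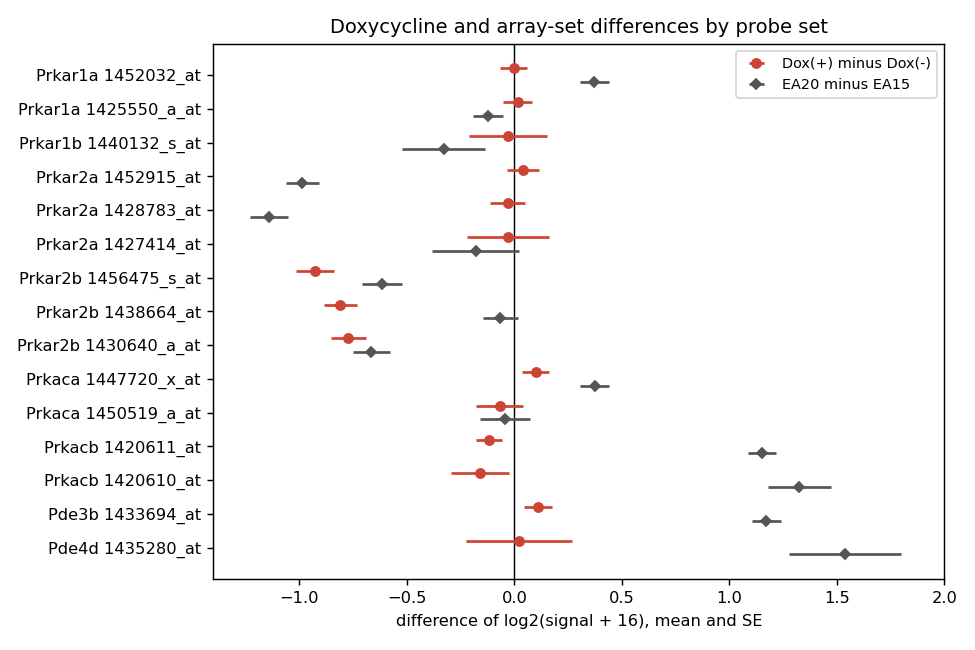
Differences of log2(signal + 16) with SE for the 15 member probe sets with a mean signal of at least 100; red circles are Dox(+) minus Dox(-) with the array-set block, grey diamonds EA20 minus EA15. The 3 Prkar2b probe sets have red circles at -0.77 to -0.93, while those of the other genes lie between -0.16 and 0.11.

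Other genes of cAMP signalling were taken from 8 lists of 102 genes that are not members, of which 92 were measured. With the block, 1 of the 92 rose and 0 fell by limma (0.198% of all genes were called in either direction), and their median log2 difference was 0.008. The gene that rose was Gpr174, a receptor for lysophosphatidylserine that couples to Gs and raises cAMP. It read 338, 306 and 356 without and 535, 765 and 685 with doxycycline, 1.92-fold higher (95% interval 1.57 to 2.36, limma adjusted p 0.031). This result was known when the list was made. The p-values of Gpr174 and the list counts that include it are thus descriptions and not a test. All treated arrays were above all untreated ones, with ratios of 1.56 in the EA15 pair and 2.14 in the EA20 set. The rise depended on the probe set. Without _s_at, _x_at and _a_at probe sets, where another probe set reads the gene, it was 1.49-fold and not called (limma adjusted p 0.26). With the mean of all its probe sets it was 1.69-fold and not called (limma adjusted p 0.13). The call was lost without Dox(-) array 2, Dox(-) array 3, Dox(+) array 2 or Dox(+) array 3 (limma adjusted p 0.14, 0.20, 0.21 and 0.16), as it was without the block (1.0), and it passed in 7 of 16 alternatives (limma adjusted p 0.0087 to 1.0 over them). Of the 11 measured genes of its list of G proteins and Gs-coupled receptors, 1 rose and 0 fell, with a median log2 difference of 0.10.

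Among PKA inhibitors and the related kinase Prkx, 0 of 4 passed. Pkig, the gene of an inhibitor that binds free catalytic subunits, had the smallest p and read 2651, 3197 and 3541 without and 2953, 4381 and 4225 with doxycycline (0.29, SE 0.07, limma adjusted p 0.17). In each array set the treated Pkig signals were above the untreated ones. Pkia was dim (0.629 to 25.4), and Prkx was at 0.07 (SE 0.09).

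Adenylyl cyclases, which make cAMP, gave 0 of 10 calls, and 9 of the 10 genes were below the median gene signal. Adcy7, the one above it and a form known from blood cells, read 2607, 4191 and 4494 without and 2831, 4696 and 4734 with doxycycline (0.12, SE 0.06). Adcy1 was at -1.32 (SE 0.52), with 51.4 and 65.5 in the EA15 pair and 40.5 and 87.3 against 2.22 and 0.993 in the EA20 set. Adcy2 was at 0.25 (SE 0.34).

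Of 22 A-kinase anchoring proteins, which hold type II PKA in place, 0 passed, with a median of -0.05. Akap3, known from sperm, was dim and at 0.96 (SE 0.38), Akap8l at 0.20 (SE 0.10) and Akap1, the mitochondrial anchor, at -0.16 (SE 0.08).

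Of 15 other phosphodiesterases 0 passed (median 0.06). Pde6d, which encodes a chaperone of prenylated proteins, was at 0.32 (SE 0.08, limma adjusted p 0.20), and Pde1b, of a calcium-dependent enzyme, at 0.30 (SE 0.11). Pde11a was at -1.21 (SE 0.41), from 14.2, 52.2 and 70.6 to 11.3, 3.70 and 10.9. It is the only one of the 3 whose groups did not overlap.

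The remaining lists held further effectors and targets of the pathway. Of 7 EPAC and other cAMP effectors 0 passed, with the GTPase gene Rap1b at 0.15 (SE 0.08), Rapgef3, which encodes the exchange factor EPAC1, at -0.28 (SE 0.25) and Hcn3 at -0.24 (SE 0.27). Of 7 CREB family genes and coactivators 0 passed (median -0.11), with the coactivator gene Crtc1 at -0.28 (SE 0.09, limma adjusted p 0.27), Crebbp at -0.11 (SE 0.07) and Creb1 at -0.11 (SE 0.07). Of 16 genes that cAMP and CREB induce in many cells 0 passed (median 0.08). Fos was at 0.45 (SE 0.16), the metabolic coactivator gene Ppargc1a at -0.73 (SE 0.36) and the phosphatase gene Dusp1 at 0.24 (SE 0.12).

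**Figure D4:**
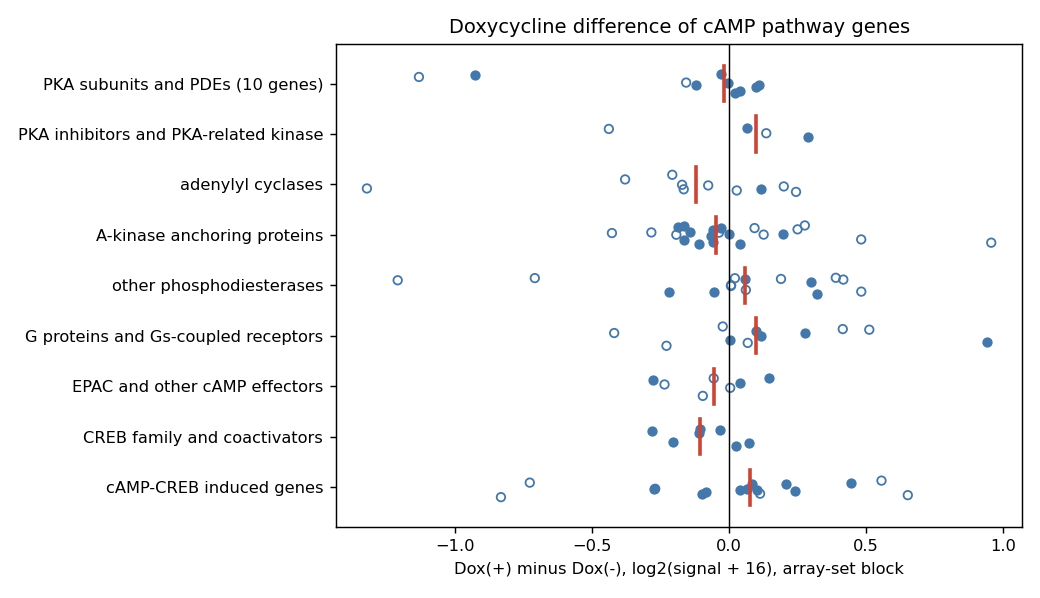
Dox(+) minus Dox(-) difference of log2(signal + 16) with the array-set block for the 10 PKA subunit and phosphodiesterase genes and the genes of 8 cAMP pathway lists; each circle is a gene, open where its mean signal is below the median gene, and red bars are list medians. Prkar2b at -0.93 is the lowest filled circle and Gpr174 at 0.94 the highest.

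The genes whose profile over the 6 arrays was most like that of Prkar2b, among 8215 others with a mean signal of at least 200, were Qtrt2 (Pearson r = 0.988), Eml4 (0.985), Sdad1 (0.981), Tti2 (0.980) and Ube3b (0.979). The points share the arrays, their scaling and the array sets, and the correlation is a description over 6 arrays. The genes were picked for a profile like that of Prkar2b, so the shared sign of their doxycycline differences is no separate result. Their log2 differences with doxycycline were smaller than that of Prkar2b. They were -0.36 (SE 0.09) for Qtrt2, -0.44 (SE 0.08) for Eml4, -0.45 (SE 0.09) for Sdad1, -0.19 (SE 0.11) for Tti2 and -0.06 (SE 0.08) for Ube3b. The blocked limma fit called none of these genes. Qtrt2, for example, read 750.0, 624 and 600 without and 561, 499.7 and 461 with doxycycline.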

How the data were processed

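The authors deposited 1 signal intensity per probe set on a linear scale. Per the submitters' processing notes the software was Affymetrix Expression Console, with algorithm and version not given in the sources used here. The values themselves show that arrays were scaled to a common mean after trimming 2% at each end, which hides any change of total mRNA. The 6 arrays limit the precision. No detection calls were used.

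Of 45101 probe sets 64 controls were left out. Symbols came from the platform annotation: 34945 probe sets had 1 symbol, 932 several and 9160 none. Each gene was represented by its brightest probe set. limma 3.58.1 in R 4.3.3 (lmFit, eBayes with trend) was run on log2(signal + 16) with doxycycline and array set (start of the array code) as terms, two-sided, with Benjamini-Hochberg adjustment over 18193 genes. The members, lists and the block were chosen with earlier results of these data known. Named genes were the members, every called gene of a list or otherwise its 3 with the smallest p, and the 5 most like Prkar2b. The fit was tested on simulated data with known changes. Replicate numbers were given in sample order and pair no samples. Alternatives were other blocks, scalings, pseudocounts, probe set rules, priors and leaving out arrays.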

Additional observations from a re-analysis of the deposited data

How the results depend on the processing

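The count of genes called with doxycycline, 36 in the fit with the block, was 75 with the EA20 arrays alone, 13 with the mean of all probe sets, 0 without the block, 0 without the mean-variance trend, 61 and 22 with pseudocounts of 1 and 64, 130 without the dimmest genes (40th percentile of mean signal), and 0 to 60 with an array left out. Without dim genes fewer genes were tested. The cause of the other shifts was not tested. The count in the cAMP pathway lists, 1, was 2 with the EA20 arrays alone, 0 with all probe sets of a gene averaged, without the block or the trend, a pseudocount of 64 or no _s_at, _x_at and _a_at probe sets, and 0 to 2 with an array left out. The 6107 of 18193 genes called between array sets became 4527 to 5831 with an array left out. With every probe set tested by itself, 11176 of 45037 probe sets were called, a count on a different base. The Prkar2b share was lower with doxycycline by 12.0 percentage points, and leaving out an array moved its difference between -15.6 and -8.62. This is a difference of group means without the block. Its extremes came from leaving out the Dox(+) or the Dox(-) array of the EA15 pair, which leaves the array sets uneven. Within the sets the differences were -11.6 (EA15) and -12.2 (EA20) percentage points. The log2 difference of Prkar2b was negative in 16 of 16 alternatives (-1.002 to -0.81), but these are not separate checks. It stayed at -0.93 without the block, the trend or dim genes, changes that cannot move it. The EA20 arrays alone and leaving out either EA15 array gave the same -0.98. Prkar2b was chosen with this contrast known, so the shared sign is no independent support. The array-set difference of Prkar1b went from -0.33 to -1.28 (limma adjusted p 0.032) without _s_at, _x_at and _a_at probe sets, which changes the probe set that reads the gene. The doxycycline difference of Pde3a turned to 0.45 without _s_at, _x_at and _a_at probe sets. Of the 157 member differences with doxycycline under alternatives, 147 moved by less than the residual spread, and 10 by more. That tally overstates how stable they are. Dropping the block, the trend or dim genes leaves each difference as it was, and the EA20 arrays alone and leaving out either EA15 array give the same estimate. No paired analysis was possible because the labels give no replicate numbers; the array set served as the block.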

Other observations

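Rgs2, the gene of a G protein regulator that cAMP induces in many cells, was noticed after its values were seen. It read 660 and 472 in the EA15 pair, without and with doxycycline, and 2572 and 2694 against 3716 and 4005 in the EA20 set. In the EA20 set alone it rose 1.46-fold (limma adjusted p 0.034), while the ratio in the EA15 pair was 0.721 and the blocked fit did not call it (limma adjusted p 0.73). Grouped by array set and treatment, its arrays are ordered like those of Pde4d, which was also lower with doxycycline in the EA15 pair and higher in the EA20 set. The EA15 differences of both genes are between single arrays and have no spread of their own. A different response in the array sets cannot be read from them. The order of the treated EA20 arrays differed between these genes.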
